A study of Mus musculus with 4 samples.

Results

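Total RNA of 10 imprinted genes that act on fetal growth was compared between mouse embryonic fibroblasts with and without functional SmcHD1. The genes were H19, Igf2, Mest, Dlk1, Meg3, Cdkn1c, Grb10, Plagl1, Peg3 and Phlda2. They were chosen by name, and all 10 were found among the 22691 genes of the expression table. SmcHD1 resembles SMC proteins, binds chromatin and is needed to keep the inactive X chromosome silent. The study used 4 libraries of polyadenylated RNA from fibroblasts of female E13.5 fetuses, 2 per group. The WT group had the genotype Smchd1 +/+; Xist deltaA/+ and the MD1 group Smchd1 MD1/MD1; Xist deltaA/+, so both groups carried the Xist-deltaA mutation, which came from the C57BL6/J mothers. MD1 (MommeD1) is a nonsense allele of Smchd1. The labels do not say whether the 2 libraries of a group came from separate fetuses. The fathers of both groups were F1 males of JF1 and C57BL6/J, so autosomal JF1 alleles reach the fetuses only in inherited blocks. Expression was available as 1 mean per group in FPKM, a count of fragments scaled to transcript length and library size, which allows levels of different genes to be compared. Spread between libraries is therefore not known for any value given here, and no test between the groups was possible.

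An imprinted gene is read mainly from the copy inherited from a single parent, because germ cells leave different DNA methylation marks on the maternal and the paternal copy. Many genes expressed from the paternal copy, such as Igf2, favour growth of the fetus, and many expressed from the maternal copy, such as Cdkn1c, Grb10 and Phlda2, restrain it. Several of the 10 genes are highly expressed in embryonic connective tissue and muscle and are shut down after birth. SmcHD1 is also known to take part in silencing at some imprinted clusters.

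Mest and H19 had the largest differences among the 10, and both are host transcripts of microRNAs. The mature microRNAs inside the spans of Mest, H19, Igf2 and Meg3 are shown because these 4 genes, with Peg3, made up the members with at least 2-fold less RNA in MD1. No span of the other 6 members held a microRNA hairpin in the RefSeq annotation of GRCm38.p6. The sequences are RNA, 5′ to 3′, with the seed, bases 2 to 8, in capitals. The 8 seeds all differed. The microRNAs themselves were not measured, and the values below are those of the long host transcripts.
miR-335-5p, Mest: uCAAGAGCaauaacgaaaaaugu
miR-335-3p, Mest: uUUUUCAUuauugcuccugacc
miR-675-5p, H19: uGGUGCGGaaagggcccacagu
miR-675-3p, H19: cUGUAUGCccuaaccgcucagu
miR-483-5p, Igf2: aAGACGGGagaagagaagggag
miR-483-3p, Igf2: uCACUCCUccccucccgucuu
miR-770-5p, Meg3: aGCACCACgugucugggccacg
miR-770-3p, Meg3: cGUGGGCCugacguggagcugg

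All 10 genes had less RNA in MD1 than in WT. The summed FPKM of the 10 was 2541 in WT and 817 in MD1, which was 0.593% and 0.195% of the FPKM sum of the table. A log2 ratio compares FPKM + 1 in MD1 with FPKM + 1 in WT, a scale that understates the change of low genes. A gene counted as measured when the mean of both groups was at least 1 FPKM and neither group was at 0, which held for 11399 genes and for all 10 members. On this scale 5 of the 10 were at least 2-fold lower in MD1 and 0 at least 2-fold higher. Over all measured genes 2.81% were at least 2-fold lower and 1.39% at least 2-fold higher. A ratio below 0 was found for 10 of the 10 members and for 49.2% of measured genes, and the median ratio was -0.999 for the members and 0.0058 for all measured genes. Smchd1 itself (chromosome 17, 71693834 to 71824683, mm9) was at 14.7 FPKM in the WT group and at 1.94 (13.1%) in the MD1 group. Bulk RNA cannot tell fewer cells that express a gene from less RNA per cell.

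**Figure D1:**
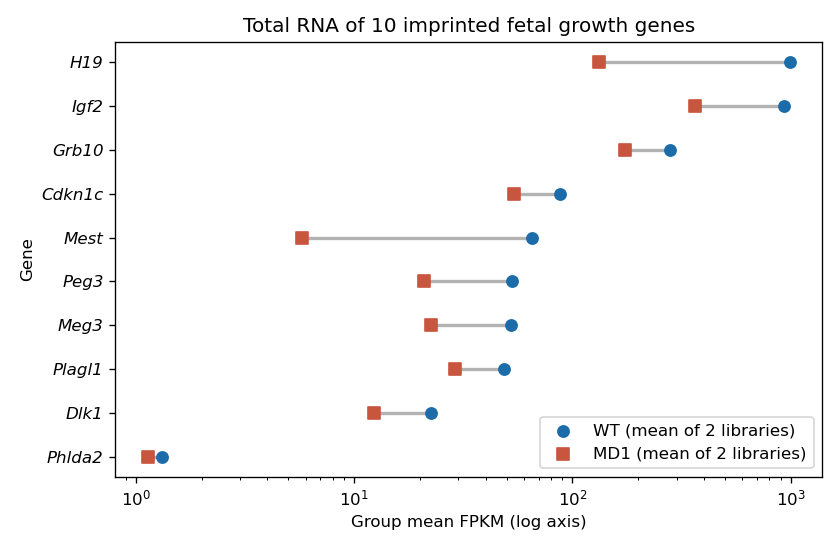
Group mean FPKM (log axis) of the 10 genes, ordered by the WT level. Circles are WT and squares MD1, each the authors' mean of 2 libraries with no spread given; the square lies left of the circle for each gene, farthest for Mest and H19.

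**Figure D2:**
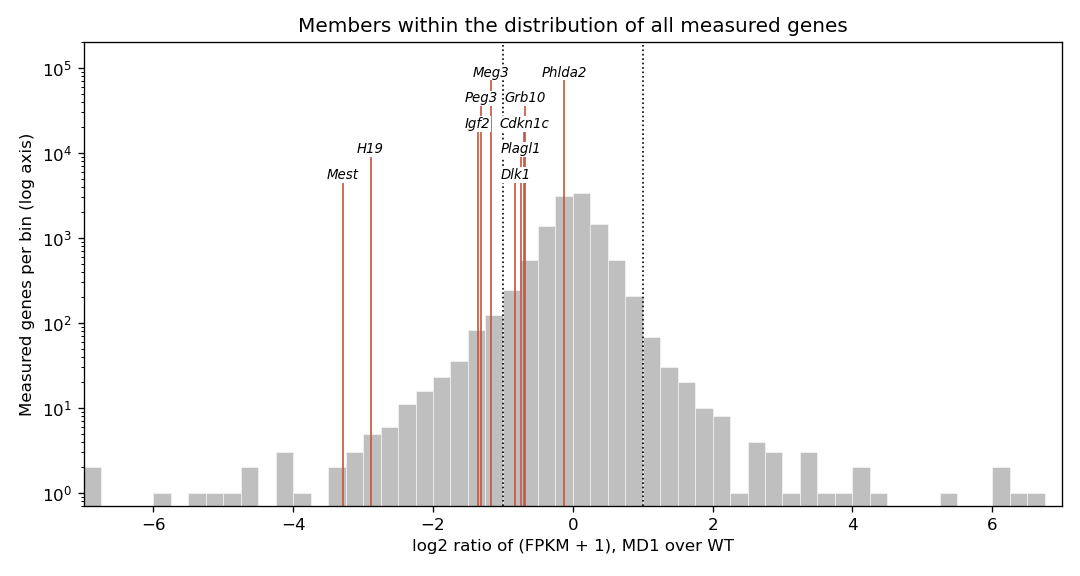
Number of measured genes (log axis) by log2 ratio of MD1 over WT in bins of 0.25, for 11399 genes. Vertical lines mark the 10 genes and dotted lines a 2-fold difference; Mest and H19 lie in the sparse lower tail, 5 members lie below -1 and Phlda2 lies within the central peak.

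Growth-promoting ligands and their partner came first in abundance. Igf2 (chromosome 7, 149836673 to 149846940, mm9) encodes insulin-like growth factor 2, the main growth factor of the fetus. It had 935.8 FPKM in WT and 364.7 in MD1, a log2 ratio of -1.36 and 38.97% of the WT level. It ranked 39 among measured genes in WT and 130 in MD1, and 160 measured genes had a lower ratio. In MD1 it was the most abundant of the 10, whereas in WT H19 was. The antisense gene Igf2os overlaps Igf2 and had 2.12 and 1.43 FPKM. Reads of the overlap cannot be told apart if the counting ignored the strand. Whether the strand was used in the counting is not given in the sources used here.

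H19 (chromosome 7, 149761437 to 149764051) yields a long noncoding RNA from the maternal copy and lies 72.6 kb from Igf2, with which it shares enhancers. It had 992.1 FPKM in WT and 132.6 in MD1, a log2 ratio of -2.89 and 13.4% of the WT level. Its rank among measured genes went from 36 to 534. Only 17 measured genes had a lower ratio. H19 and Igf2 are read from opposite parental copies, and both were lower in MD1. H19 was the more affected of the pair, so the quotient of H19 over Igf2 was 1.06 in WT and 0.364 in MD1. These 2 genes made up 75.9% of the summed FPKM of the 10 in WT and 60.8% in MD1.

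Mest (chromosome 6, 30683506 to 30698466), also called Peg1, encodes an enzyme-like protein of the alpha/beta-hydrolase fold and is expressed from the paternal copy in mesoderm. It had 65.4 FPKM in WT and 5.78 in MD1, a log2 ratio of -3.29 and 8.83% of the WT level. It was thus 11.3-fold lower, the largest difference of the 10, and 13 measured genes had a lower ratio. Its place among the 10 went from 5 in WT to 9 in MD1, and among all measured genes from rank 1252 to 8032. Its 3′ end overlaps that of Copg2, a coat protein gene on the other strand, which had 9.72 and 7.18 FPKM.

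Dlk1 and Meg3 are neighbours on chromosome 12, 77.7 kb apart, and are read from opposite parental copies. Dlk1 (110691033 to 110701546) encodes a membrane protein related to Notch ligands that holds back fat cell differentiation. It had 22.6 FPKM in WT and 12.3 in MD1, a log2 ratio of -0.82. Meg3 (110779206 to 110809939) is a maternally expressed long noncoding RNA and had 52.3 and 22.6 FPKM, a log2 ratio of -1.18. Both were lower in MD1, and the quotient of Meg3 over Dlk1 was 2.32 in WT and 1.83 in MD1.

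Transcription factors formed the next pair. Plagl1 (chromosome 10, 12810594 to 12851501) encodes the zinc finger protein ZAC1, which is known to act on other imprinted genes, H19 and Igf2 among them. It had 48.8 FPKM in WT and 28.9 in MD1, a log2 ratio of -0.74. Peg3 (chromosome 7, 6658671 to 6683130) encodes a large zinc finger protein with effects on growth and maternal behaviour. It had 53.1 and 20.8 FPKM, a log2 ratio of -1.31, and 175 measured genes had a lower one. The antisense gene Peg3os lies inside Peg3 and had 0.121 and 0.0472 FPKM. Peg3 was thus above Plagl1 in WT and below it in MD1.

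Among the maternally expressed members, the growth inhibitors Grb10, Cdkn1c and Phlda2 differed less than H19 (-2.89) and Meg3 (-1.18). These inhibitors had the smallest differences of all members on the FPKM + 1 scale, but the order was close. With 5 in place of 1 added to FPKM (a pseudocount of 5), Grb10 (-0.673) differed slightly more than Dlk1 (-0.670) and Plagl1 (-0.667). Grb10 (chromosome 11, 11830502 to 11937423) encodes an adaptor that dampens signalling from the insulin and IGF1 receptors. It had 281.4 FPKM in WT and 174.6 in MD1, a log2 ratio of -0.69 and 62.04% of the WT level. Cdkn1c (chromosome 7, 150644244 to 150646955) encodes p57, an inhibitor of cyclin-dependent kinases, and had 88.1 and 53.95 FPKM, a log2 ratio of -0.70. These ratios lay at percentiles 5.75 and 5.55 of all measured genes. Phlda2 (chromosome 7, 150687453 to 150688429), a pleckstrin homology domain gene that limits growth of the placenta, is 40.5 kb from Cdkn1c. It had 1.32 FPKM in WT and 1.13 in MD1, a log2 ratio of -0.12 at percentile 33.4. Phlda2 was close to the lower limit of measured genes, at rank 11000 in WT, so its RNA was scarce in both groups.

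By parental origin the 5 paternally expressed members (Igf2, Mest, Dlk1, Plagl1 and Peg3) had ratios of -3.29 to -0.74 with a median of -1.31. The 5 maternally expressed members (H19, Meg3, Cdkn1c, Grb10 and Phlda2) had ratios of -2.89 to -0.12 with a median of -0.70. At least 2-fold lower were 3 of the paternal and 2 of the maternal genes. Large and small differences thus occurred on both sides. Allele-specific values in the table covered the X chromosome, and 0 of the 10 genes had one. Which parental copy the RNA came from is therefore not analysed here.

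Windows of 250 bases before the RefSeq transcript starts (GRCm38.p6), of which a gene can have several, were searched for a pair of short motifs linked to imprinted genes. The first was TGCCGC, the core of the sequence that the imprint-keeping protein ZFP57 binds when methylated. The other was GGGGCCCC, an element that ZAC1 binds. Both strands were searched. TGCCGC was found in 10.6% and GGGGCCCC in 1.10% of 20330 windows from 16823 genes of the table. The members had 15 windows from 8 genes, and H19 and Cdkn1c had no entry. TGCCGC was in 4 of the 15 windows, from Mest, Plagl1 and Meg3, and GGGGCCCC in 1, from Peg3. Of the 4, 2 are windows of Mest that overlap almost wholly, so a single one of them is shown. It lies before an internal start of Mest, inside the span of the gene, and the window before the outermost start (chr6:30733256-30733505) held no match. The windows with a match are printed in gene orientation, with the match in capitals. GCGGCA is TGCCGC on the other strand. A match is a feature of the reference sequence and not a measured binding site.
Mest, GRCm38.p6 chr6:30737800-30738049, plus strand: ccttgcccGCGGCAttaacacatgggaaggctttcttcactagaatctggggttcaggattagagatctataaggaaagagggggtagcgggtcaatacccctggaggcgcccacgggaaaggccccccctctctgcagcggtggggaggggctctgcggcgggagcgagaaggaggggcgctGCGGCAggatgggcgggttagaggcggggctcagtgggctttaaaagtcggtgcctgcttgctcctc
Plagl1, GRCm38.p6 chr10:13090582-13090831, plus strand: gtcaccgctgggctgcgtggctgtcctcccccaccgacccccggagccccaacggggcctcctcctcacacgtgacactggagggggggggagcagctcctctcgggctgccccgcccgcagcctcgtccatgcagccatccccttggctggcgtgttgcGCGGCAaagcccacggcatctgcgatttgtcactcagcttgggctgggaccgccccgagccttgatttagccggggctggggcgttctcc
Meg3, GRCm38.p6 chr12:109540746-109540995, plus strand: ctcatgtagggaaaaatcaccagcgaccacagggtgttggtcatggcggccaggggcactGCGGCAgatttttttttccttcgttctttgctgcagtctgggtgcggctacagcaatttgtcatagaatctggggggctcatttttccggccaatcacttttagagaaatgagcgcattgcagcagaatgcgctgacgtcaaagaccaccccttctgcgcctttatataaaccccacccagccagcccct
Peg3, GRCm38.p6 chr7:6730420-6730669, minus strand: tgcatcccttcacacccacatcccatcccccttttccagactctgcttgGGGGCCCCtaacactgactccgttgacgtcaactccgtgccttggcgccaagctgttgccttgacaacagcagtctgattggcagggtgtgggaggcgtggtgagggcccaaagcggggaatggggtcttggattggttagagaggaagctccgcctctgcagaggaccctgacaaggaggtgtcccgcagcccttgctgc
The member windows held 0 to 40 CG pairs with a median of 10, the same as the median of all windows. The window with 40 pairs is from Grb10 and the one with 0 from Meg3.

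Genes beside the members were lower in some domains and level in others, and a few were higher. Around H19 the 3 measured neighbours of the domain list were all at least 2-fold lower in MD1. The mitochondrial ribosomal protein gene Mrpl23, 34.8 kb from H19, had 9.45 FPKM in WT and 0.210 in MD1, a log2 ratio of -3.11. The muscle troponin gene Tnnt3 (5.91 and 1.58) and the leukocyte-specific protein gene Lsp1 (40.4 and 18.3) had ratios of -1.42 and -1.10. Ins2 and Nctc1 were listed at 0 in both groups, and Th was at 0.00828 in WT and listed at 0 in MD1. The measured genes of this domain list were thus lower, as were H19 and Igf2.

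In the Dlk1 to Dio3 domain the maternally expressed noncoding RNAs Rian and Mirg were lower together with Meg3. Rian had 90.1 FPKM in WT and 56.3 in MD1, and Mirg 7.35 and 3.89, with log2 ratios of -0.67 and -0.77. Wars, which lies outside the imprinted part of the domain, was nearly level at 40.8 and 38.5. Rtl1, Dio3, Begain and Wdr25 were too low to be measured. Next to Peg3, the maternally expressed zinc finger gene Zim1 (9.53 kb away) had 5.21 and 1.32 FPKM, a log2 ratio of -1.42. In MD1, Zim1 was at 25.3% of its WT level and Peg3 at 39.2%. Usp29 was below the limit, and Zim3 was listed at 0 in both groups. Zim1 and Peg3 are another pair read from opposite parental copies that was lower on both sides. Beside Grb10, the dopa decarboxylase gene Ddc (3.32 and 1.27) and the actin nucleator gene Cobl (5.38 and 2.41) had ratios of -0.93 and -0.90, and Fignl1, a DNA repair gene, was higher at 8.14 and 12.8.

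In the remaining domains the ratios of most neighbours were nearer to 0 than those of the members, Phlda2 excepted. Beside Mest, Copg2 had a ratio of -0.39 and Cep41 of -0.00060, with 2.62 FPKM in each group. Tsga13 was listed at 0 in both groups, Klf14 at 0 in WT, and Cpa1 and Cpa5 at 0 in MD1. Beside Plagl1, Phactr2, Sf3b5, Ltv1 and Fuca2 had ratios of -0.11 to 0.095, and Zc2hc1b was listed at 0 in both. In the Kcnq1 domain, which holds Cdkn1c and Phlda2, Cd81, a tetraspanin gene, had 349.4 and 243.3 FPKM and a ratio of -0.52. Tssc4, Nap1l4, Cars and Osbpl5 had ratios of -0.16 to 0.15. Tnfrsf22 and Tnfrsf23 lie between Cars and Osbpl5 but are not in the domain list, and were higher, with ratios of 1.04 and 1.14. Kcnq1ot1, the noncoding RNA that silences this domain in cis on the paternal copy, had 0.0322 and 0.047 FPKM, and Trpm5 was listed at 0 in both. Over the 7 domain lists 16 of 21 measured genes were below 0, 4 of them at least 2-fold, with a median of -0.16. Among all measured genes 49.2% were below 0 and 2.81% at least 2-fold lower. Of the 4 genes, 3 lie beside H19.

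**Figure D3:**
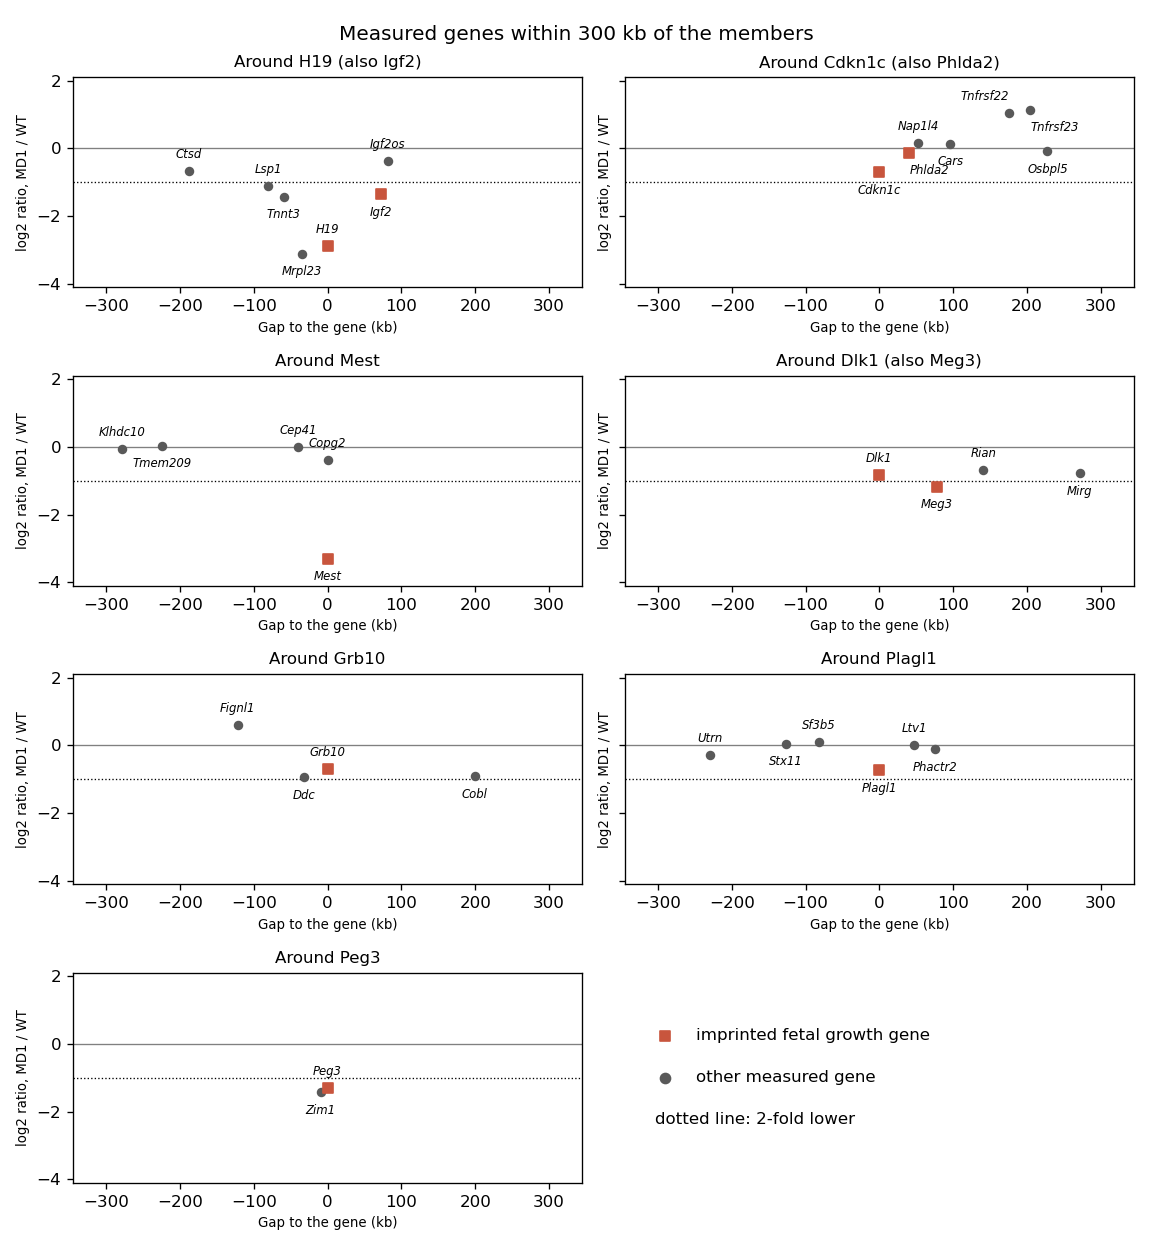
Log2 ratio of MD1 over WT against the gap in kb to the named gene, for measured genes within 300 kb in mm9; squares are members of the 10, circles other genes, and the dotted line marks 2-fold lower. Around H19 all measured genes lie below 0, around Mest and Plagl1 the member lies apart from its neighbours, and around Cdkn1c Tnfrsf22 and Tnfrsf23 lie above 1.

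Imprinted genes outside the 10 did not share a direction to the same extent. Of 61 listed, 39 were measured, 26 were lower and 13 higher, and 2 were at least 2-fold lower and 2 at least 2-fold higher. Their median ratio was -0.12, against -0.999 for the 10, and this difference was not tested. Some of these genes are also domain neighbours described above. Parental origin is as listed, and imprinting of these genes in the fibroblasts was not examined. Among 14 measured paternally expressed genes 8 were lower (median -0.041). The widest ratios were those of Peg12 (5.05 and 16.4 FPKM, 1.53), the necdin gene Ndn (63.9 and 128.1, 0.99), the brain proteolipid gene Nnat (27.0 and 13.3, -0.97) and Ddc. Among 25 maternally expressed genes 18 were lower (median -0.20), with the protease inhibitor gene Tfpi2 at 3.39 and 18.8 (2.17), Zim1, the paraoxonase gene Pon3 at 10.7 and 4.36 (-1.13) and Cobl.

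The pathway around Igf2 was mixed. Of 8 measured ligands, receptors and adaptors 5 were lower and 3 higher, with a median of -0.15. Igf1, the postnatal growth factor, had 5.26 and 1.79 FPKM (-1.17), and Igf2r, the receptor that clears IGF2, 104.2 and 65.4 (-0.66). Grb14, a relative of Grb10, was higher at 12.0 and 36.0 (1.50), opposite to Grb10, and Shc1 was at 56.1 and 38.6 (-0.53). The signalling receptors Igf1r and Insr had ratios of -0.12 and 0.043 and were nearly level. Of 6 measured IGF binding proteins, which hold IGFs outside the cell, 5 were lower and 3 at least 2-fold, with a median of -1.40, or -0.53 over 8 genes without a filter on FPKM. Igfbp5 had 70.5 and 10.04 FPKM (-2.70), Igfbp3 75.3 and 16.6 (-2.11), Igfbp2 110.6 and 29.6 (-1.87) and Igfbp4, the exception, 41.9 and 81.1 (0.94). Genes listed as RNA-binding proteins or other factors linked to the Igf2 and H19 transcripts were level, with a median of 0.033 over 5 genes. Their widest ratios were Elavl1 at 0.22, Hmga2 at -0.20, Igf2bp2 at -0.076 and Igf2bp1 at 0.040.

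Relatives of the members had ratios on both sides of 0. Of 6 CDK inhibitors related to Cdkn1c in function, 5 were lower (median -0.37), with Cdkn2b at 89.1 and 38.3 FPKM (-1.20), Cdkn2a at 70.9 and 37.0 (-0.92), Cdkn1a at 370.1 and 237.0 (-0.64) and Cdkn2c higher at 8.32 and 10.2 (0.26). Among 6 measured Notch pathway genes and Dlk2, 5 were lower (median -0.18). Notch3 had 4.81 and 1.14 FPKM (-1.44), Dlk2 3.98 and 2.07 (-0.69), Hes1 49.6 and 39.4 (-0.33) and Jag1 14.5 and 15.9 (0.13). Plagl2 had a ratio of 0.22, Phlda1 0.081 and Phlda3 -0.26. These relatives of Plagl1 and Phlda2 were thus near their WT level.

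Factors that set or keep imprints were not lower as a group. Of 13 measured, 5 were lower and 8 higher, with a median of 0.054, or 0.24 with the filter at a mean FPKM of 10. The only one past 2-fold was Smchd1. The maintenance DNA methyltransferase gene Dnmt1 had 25.7 and 43.4 FPKM (0.73), its partner Uhrf1 16.0 and 29.6 (0.85) and Ctcf, whose protein insulates Igf2 from its enhancers on the maternal copy, 20.9 and 26.2 (0.31). Zfp57 had 15.2 and 12.5 FPKM, a ratio of -0.27.

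**Figure D4:**
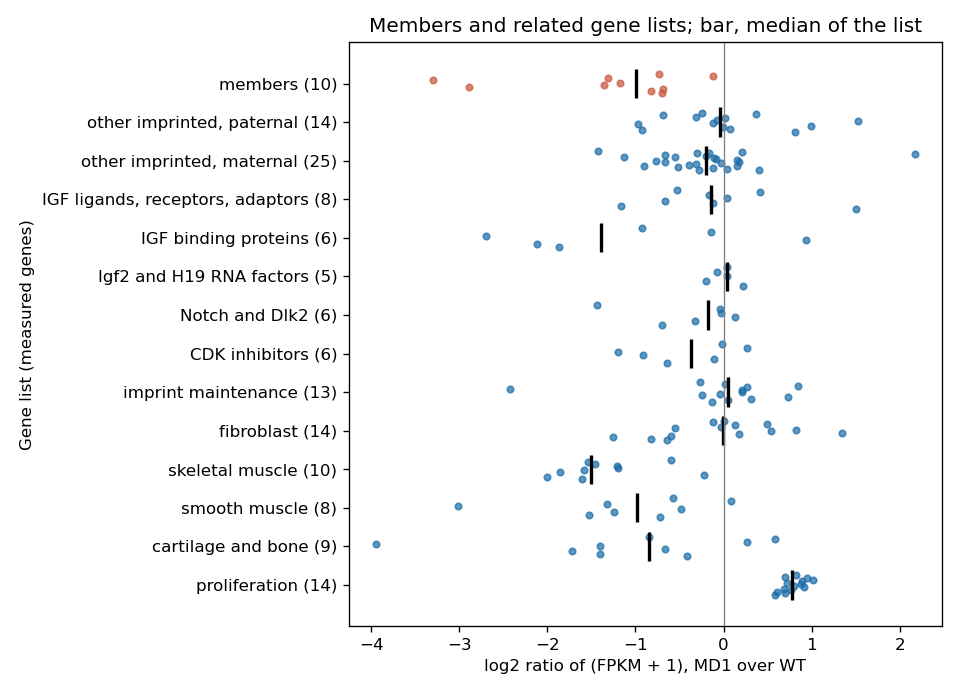
Log2 ratio of MD1 over WT for each measured gene (points) and the median (bar) of the 10 members and of 13 other gene lists; the number of measured genes is in brackets. The medians of the members, the IGF binding proteins and the muscle lists lie near or below -1, the proliferation genes lie above 0.5 and most other lists centre near 0.

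Most skeletal muscle, smooth muscle and cartilage and bone genes were lower beside the members, and proliferation genes higher. The labelled cell type was checked on 14 fibroblast genes, all of which were measured, with Vim at 2790 and 2802 FPKM, 7 lower and 7 higher and a median of -0.011. Their widest ratios were Fn1 at 1.34, Col3a1 at -1.25, Col1a2 at -0.83 and Pdgfra at 0.82. All 10 measured skeletal muscle genes were lower (median -1.50, or -0.88 with a pseudocount of 5), with the summed FPKM of the list at 201.6 in WT and 64.4 in MD1. Actc1, Des, Acta1 and Myh3 had ratios of -2.00, -1.86, -1.61 and -1.59. The defining factor Myod1 was at 1.30 and 0.545 FPKM, and Myf6 was listed at 0 in MD1. Of 9 cartilage and bone genes 7 were lower (median -0.85, or -0.52 with a pseudocount of 5, sums 1051 and 560.4), led by Ibsp (-3.95), Col11a1 (-1.72), Comp (-1.41) and Alpl (-1.40). The 2 that were higher were the lineage-defining factors Sox9 (4.41 and 7.10 FPKM, 0.58) and Runx2 (7.35 and 9.03, 0.26). Another such factor, Sp7, was below the limit of measured genes and lower in MD1, at 1.46 and 0.372 FPKM. Of 8 smooth muscle genes 7 were lower (median -0.98, sums 5826 and 3544), led by Myh11 (-3.01), Actg2 (-1.53), Mylk (-1.32) and Cnn1 (-1.24). All 14 proliferation genes were higher (median 0.78, sums 364.1 and 646.8), with Mki67, Pcna, Cdk1 and Mcm6 at 1.01, 0.95, 0.92 and 0.89. The part of these cell types and of proliferation in the lower levels of the 10 genes was not tested.

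Other cell types gave smaller medians. These were -0.098 for 5 adipocyte genes (Pparg -0.96, Cd36 0.85, Lpl -0.69, Cebpa 0.27) and -0.22 for 8 blood and immune genes (C1qb -0.84, C1qc -0.76, C1qa -0.53, Cd14 0.42). They were -0.16 for 5 neural genes (Map2 -1.29, Stmn2 1.28, Tubb3 0.90, Nes -0.33), 0.081 for 4 endothelial genes (Flt1 0.99, Emcn -0.99, Egfl7 0.25, Kdr -0.084) and 0.14 for 2 epithelial genes (Krt18 0.35, Krt8 -0.069). The adipocyte marker Fabp4 was nearly level at 18.5 and 17.2 FPKM, so the adipocyte genes differed in direction. Dlk1 restrains fat cell formation, but a link between its lower level and these genes was not tested.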

How the data were processed

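Per the labels' protocols, the 4 libraries were made from polyadenylated RNA with a kit that keeps the strand. The authors deposited total expression as FPKM, as a single mean for each group. The submitters' processing notes list mm9, Cuffdiff and Cufflinks 2.2.1 without saying what each did. Neither the aligner nor the annotation is given in the sources used here. The authors also deposited allele-specific read counts of 952 X-linked genes, which totalled 521768 to 806626 per library and served here only to show depth. The depth behind FPKM is unknown. A further 8 columns of X-linked shares and sums, 4 of them per library, were not used. The planned limma test needs values per library and could not be fitted, so ratios are described without p-values. Starts were moved to 1-based mm9 positions; sequences are from RefSeq on GRCm38.p6 and coordinates were never converted between builds. Named genes are the members, Smchd1, domain neighbours and, of each other list, up to 4 with the largest absolute ratio. A few further genes were named after their values were seen: Igf1r, Insr, Zfp57, Vim, Sox9, Runx2, Sp7, Myod1, Myf6, Fabp4, Igf2os, Peg3os, Tnfrsf22 and Tnfrsf23. The same holds for Mrgpre, Nadsyn1 and Ctsd in the closing section. The members and all 30 lists were chosen with earlier results of these data known. In simulated data without noise, all 200 genes given a change beyond 2-fold were counted as such. That checks the arithmetic only and says nothing about the spread of the real values. Python 3.11.15, numpy 2.4.6 and pandas 2.3.3 were used.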

Additional observations from a re-analysis of the deposited data

How the results depend on the processing

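Replicates were not left out in turn, since each group has 1 mean, and no value has an error. No paired analysis was possible because the deposited FPKM columns carry no replicate numbers. Autosomal JF1 blocks, other differences between the cultures and the genotype cannot be told apart. Every member that passed the filter was below 0 under each of 7 alternatives. A pseudocount cannot change the sign of a ratio, and a filter leaves each ratio as it was. The sign could therefore have changed only with quantile normalization or with columns scaled to the same sum. The same 5 genes (H19, Igf2, Mest, Meg3 and Peg3) stayed at least 2-fold lower in all 7. Phlda2 was removed by the filters at a mean FPKM of 5 and 10, the latter chosen after seeing the data. The median of the members was -1.04 with a pseudocount of 0.1, -0.86 with 5, -1.01 with quantile normalization, -0.97 with columns scaled to the same sum and -1.18 under both filters. The share at least 2-fold lower among all genes that passed the filter was 4.33% with a pseudocount of 0.1, 1.08% with 5 and 2.15% at a mean FPKM of 10 or more. Mest ranged from -3.48 to -2.71, H19 from -2.90 to -2.85 and Phlda2 from -0.21 to -0.035. The median of the other imprinted genes was -0.14 and -0.099 with pseudocounts of 0.1 and 5, -0.048 without a filter, -0.087 with equal sums and -0.10 at a mean FPKM of 10. Without a filter the medians of the paternally expressed other imprinted genes (0.013) and of the Igf2 and H19 RNA factors (-0.033) changed sign. That of the fibroblast genes did so with quantile normalization (0.066) and equal sums (0.020). Other medians that moved by over 1.5 times were those of the maternally expressed other imprinted genes (-0.11 without a filter, -0.084 at a mean FPKM of 10), the CDK inhibitors (-0.64 at a mean FPKM of 5), the blood and immune genes (-0.34 and -0.14 with pseudocounts of 0.1 and 5) and the neural genes (-0.25 and -0.063 with these, -0.071 with quantile normalization), beside medians near 0.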

Other observations

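Within 300 kb of any member, a window chosen after the data were seen, 27 other genes were measured. Of these, 18 were lower and 9 higher in MD1, beside 49.2% lower among all measured genes. At least 2-fold lower were 4 and at least 2-fold higher 2, beside 2.81% and 1.39% of all measured genes. The 2 that were at least 2-fold higher lay side by side in the cluster of Cdkn1c and Phlda2. Tnfrsf22, which encodes a decoy receptor for the death ligand TRAIL, had 5.38 FPKM in WT and 12.1 in MD1 (log2 ratio 1.04) and lies 134.2 kb from Phlda2. Its relative Tnfrsf23 had 9.93 and 23.2 FPKM (1.14) and lies 163.3 kb away. Between them and Phlda2, Nap1l4 (59.2 and 66.0) and Cars (38.1 and 42.1) were nearly level. Past Tnfrsf23, Osbpl5 (-0.084), Mrgpre (-0.073) and Nadsyn1 (-0.18) were slightly below 0. Cdkn1c was thus lower and the decoy receptor genes higher, with no steady run along the cluster.

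On the far side of H19, the lysosomal protease gene Ctsd, 187.7 kb away, had 865.0 FPKM in WT and 545.8 in MD1 (-0.66). All 5 measured non-member genes within 300 kb of H19 were lower.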
